A study of Mus musculus with 12 samples.

Results

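The genes described here build, sense and store cholesterol and fatty acids: 46 mouse genes listed by name for their place in sterol synthesis, fatty acid synthesis or lipid droplet storage, with no use of their measured values. Of these 46 genes, 42 had a probe annotated to them on the array and 40 were measured, out of 10453 genes measured in all, each through its brightest probe. The cholesterol synthesis genes Acat2, Hmgcs1 and Fdft1 and the acyl-CoA synthetase gene Acsl1 are not analysed here, because no annotated probe carried their names. Acaca and Acacb, which encode the acetyl-CoA carboxylases that commit acetyl-CoA to fatty acids, had probes that did not reach the detection filter: Acaca was detected on 0 of 12 arrays and Acacb on 1, a control array. The cells were mouse hepatic progenitor cells, liver epithelial precursors sorted as live cells carrying EpCAM, CD24 and CD133 and lacking CD45, CD31 and TER119, then cultured. The culture medium supplied dexamethasone, an insulin supplement, IL-6 and the growth factors HGF and EGF to all 3 groups, and all went without serum for 24 hours. One group then received recombinant IL-4 at 50 ng/mL, another recombinant IL-13 at 50 ng/mL, and the control group vehicle with 0.1% bovine serum albumin, with 4 arrays in each group. How long the cytokines were present, the mouse strain and the age of the animals were not given in the sources used here.

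Cholesterol is made from acetyl-CoA through mevalonate, isoprenoid diphosphates, squalene and a run of sterol ring modifications, and fatty acids are made from the same acetyl-CoA with NADPH as reductant, then elongated, desaturated and joined to glycerol as triglyceride. Most of these enzymes are controlled by the sterol regulatory element-binding proteins, which SCAP escorts out of the endoplasmic reticulum when sterols are low and INSIG proteins hold back when sterols are high. Liver is a main site of both pathways in the body, and surplus lipid is kept there in droplets coated by perilipins. IL-4 and IL-13 share a receptor chain and act through the transcription factor STAT6.

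Each array detected between 18469 and 19869 of its 45281 probes. Across the 10453 genes measured, arrays within a group correlated with r between 0.993 and 0.997. The arrays lay on 2 chips, with 2 of each group on each chip, but each group kept to the same positions on both, so position and group cannot be told apart. The labels leave unsaid whether the replicates are separate cultures or animals, and the p-values therefore reflect array-to-array spread that may be technical. Among duct and progenitor markers Krt19, Sox9 and Cd24a were detected on all 12 arrays, whereas the probe for Epcam, a sort marker, was detected on 0. Prom1, the gene of the sort marker CD133, lay near background and was detected on 1 IL-4, 3 IL-13 and 1 control arrays. Hemoglobin signal averaged 8.95 and 6.77 on the log2 scale on IL-4 replicates 4 and 2 and 5.95 on control replicate 4, against 4.40 to 5.36 on the other 9 arrays. The counts are therefore given with and without those 3 arrays. Of other red cell markers, Alas2 was detected on 0 arrays. Slc4a1 was dim, at 4.54 and 4.55 on IL-4 replicates 4 and 2, 4.48 on control replicate 4 and 4.74 on IL-13 replicate 3. The source of the hemoglobin signal was not tested.

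Cytokine-treated cells carried more transcript of a small set of lipid genes, led by the NADPH-making malic enzyme Me1, the fatty acyl-CoA synthetase Acsl3 and the droplet protein Cidec, with smaller rises in a few other genes. Cidec was detected on all 8 treated arrays but 1 of 4 control arrays, so it entered the test through the treated arrays. With IL-4, 4 of the 40 measured genes rose (Pmvk, Me1, Acsl3 and Cidec) and 0 fell, at a Benjamini-Hochberg adjusted p under 0.05 over all genes. The background was 2.15% of all 10453 genes higher and 1.32% lower. With IL-13, 6 rose, namely the same 4 with Acss2 and Scd2, and 0 fell, beside 3.50% of all genes higher and 2.23% lower. When the mean of the IL-4 and IL-13 groups was set against control, 9 rose, the further ones being Sc5d, Insig1 and Scd1, and 0 fell, beside 3.51% of all genes higher and 2.63% lower. These 3 comparisons share their control arrays, so they do not stand as separate evidence.

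The differences of most other members were small. The median difference from control on the log2 scale was 0.10 with IL-4 and 0.12 with IL-13, against -0.01 over all genes in each comparison. In the submitters' processed values these medians were 0.0048 and 0.045, against -0.05 and -0.02 over all genes. Differences above 0 made up 72.5% of the members with IL-4 and 75% with IL-13, against 46.5% and 48.6% of all genes. Every IL-4 array lay above every control array for 9 members and below for 0, beside 4.32% and 4.11% of all genes. With IL-13 the same held for 11 members above and 1 below, beside 6.03% and 4.92% of all genes. Without the 3 arrays rich in hemoglobin signal, IL-4 left the same 4 genes higher, IL-13 left 5 with Scd2 lost, and the mean of both left 5, namely Pmvk, Insig1, Me1, Acsl3 and Cidec.

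**Figure D1:**
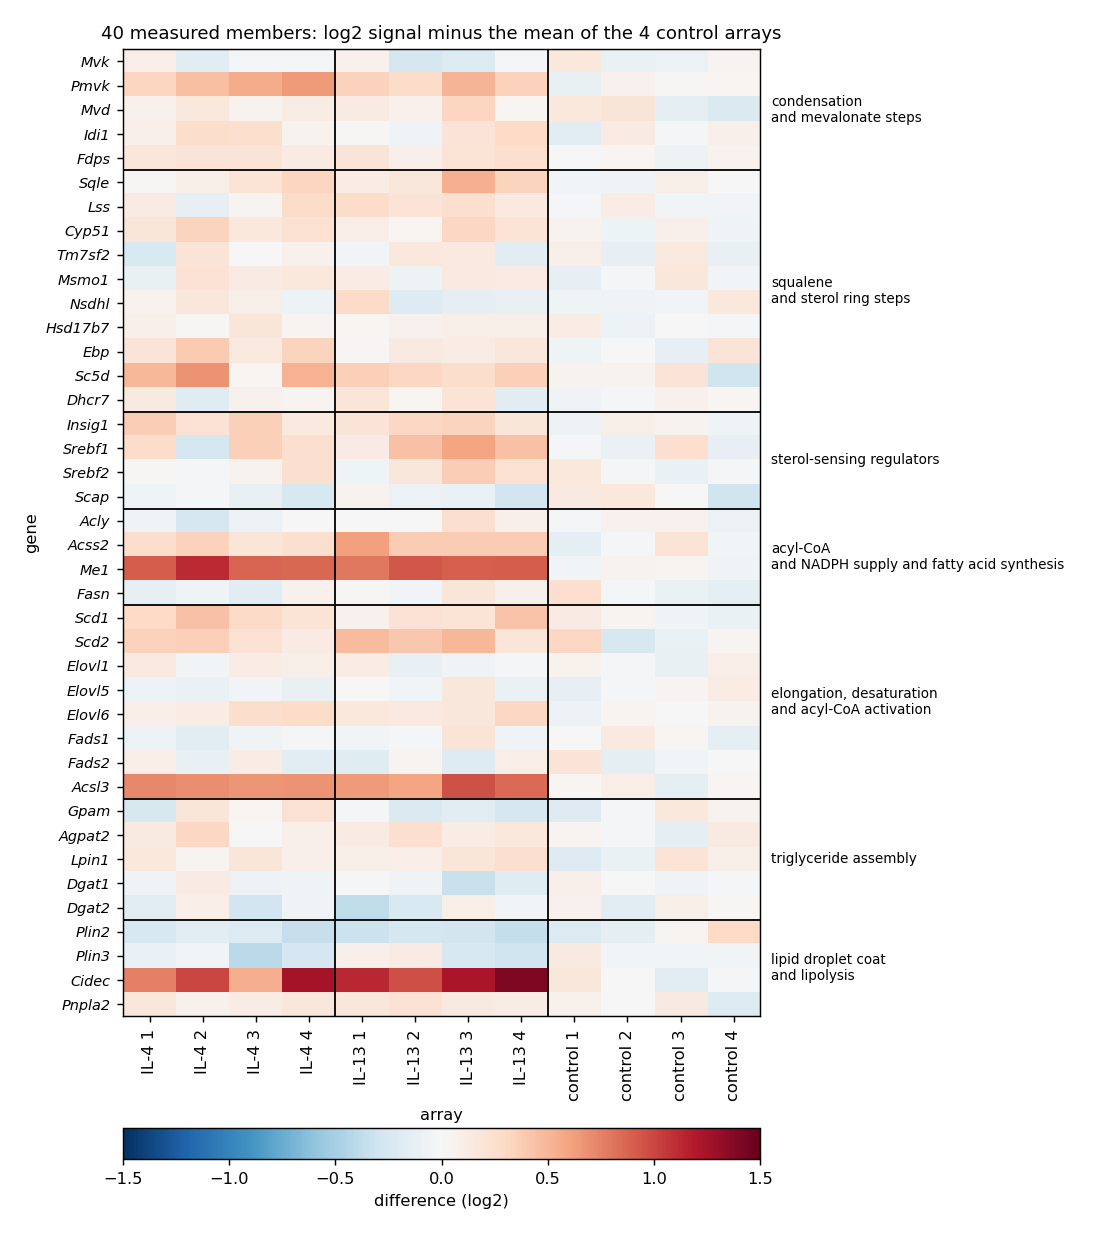
Each of the 40 measured genes (rows, in pathway order) on each of the 12 arrays (columns, IL-4, IL-13, control), coloured by normalised log2 signal minus the mean of the 4 control arrays. Me1, Acsl3 and Cidec are the rows with the deepest red across all 8 treated arrays, and the control columns stay pale.

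**Figure D2:**
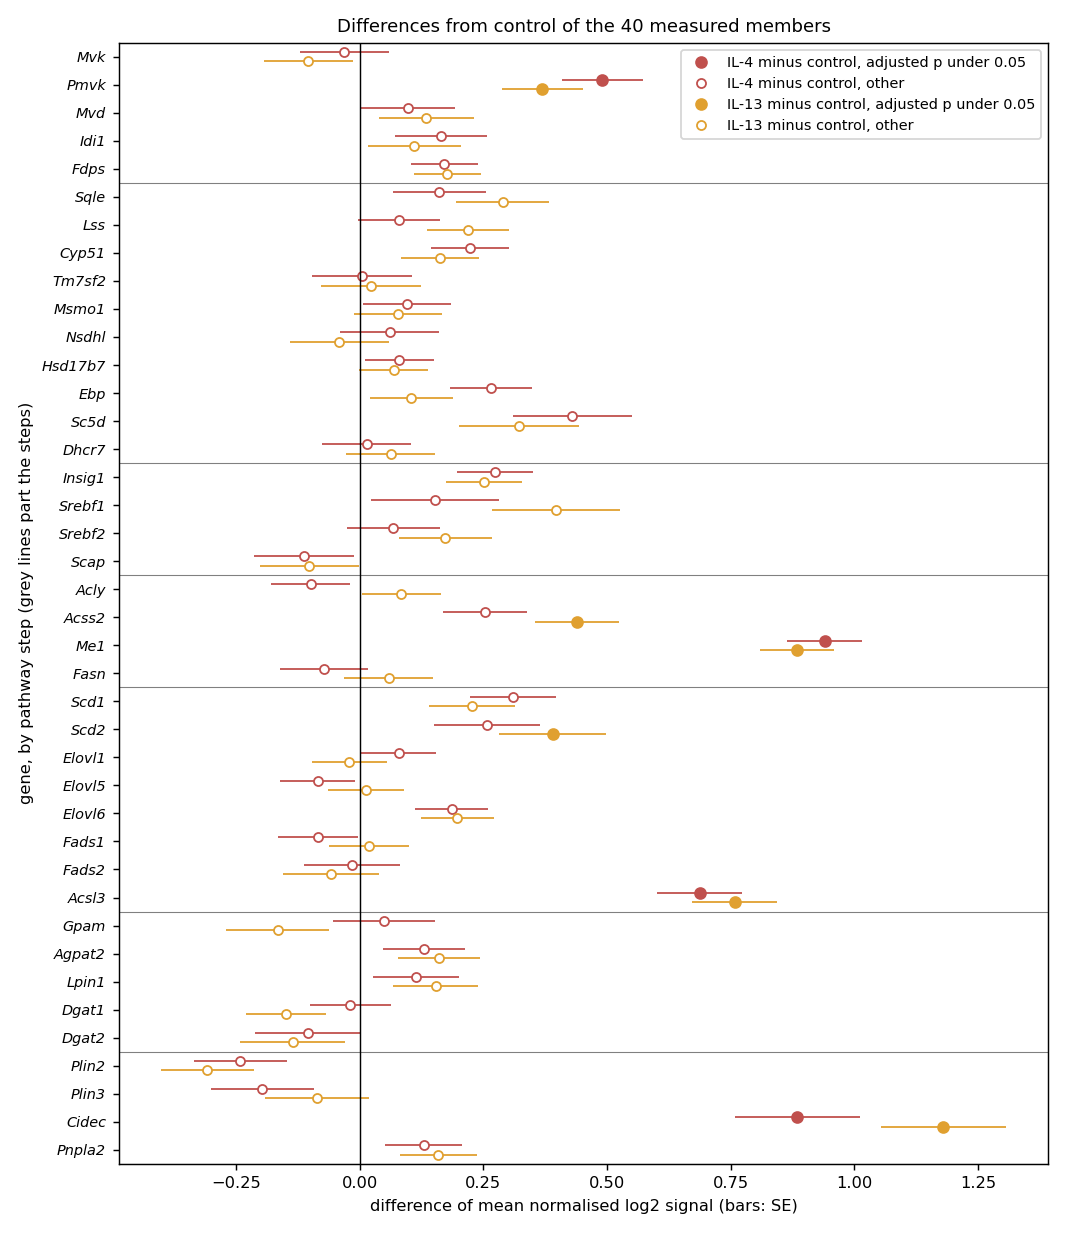
Difference from control of mean normalised log2 signal for each of the 40 genes, IL-4 in red and IL-13 in orange, with the standard error of the fit as bars and filled points for an adjusted p under 0.05. The filled points are the 4 genes called with IL-4 and the 6 called with IL-13, and they all lie right of 0.

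Promoter windows of 4 genes that rose are shown because they hold one of the short motifs searched for. RefSeq windows (build GRCm38.p6) of 250 bases before to 50 after the annotated start were available for 38 of the 46 genes, among them 7 of the 9 that rose with either cytokine or both. There is no entry for Scd1 or Scd2. On both strands, 3 motifs were searched: the sterol regulatory element core TCACNCCAC, the STAT6 type palindrome (TTC and GAA with 4 bases of any kind between them) and the antioxidant response element core TGACNNNGC. Capitals mark the match, and positions give its first base relative to the annotated start. The antioxidant core is in the windows of Me1 (chr9:86695865-86696164, minus strand) at -6, of Acss2 (chr2:155517793-155518092, plus strand) at -107 and of Pmvk (chr3:89459321-89459620, plus strand) at -12. The palindrome is in the window of Cidec (chr6:113434715-113435014, minus strand) at -247. Me1, Pmvk and Cidec each have a further window, at another annotated start, that holds none of the 3 motifs and is not printed. The printed Pmvk window holds, ahead of its match, an ATG whose reading frame spells the first codons of phosphomevalonate kinase. The Pmvk match thus lies downstream of that translation start. Which start these cells use was not tested.
Me1: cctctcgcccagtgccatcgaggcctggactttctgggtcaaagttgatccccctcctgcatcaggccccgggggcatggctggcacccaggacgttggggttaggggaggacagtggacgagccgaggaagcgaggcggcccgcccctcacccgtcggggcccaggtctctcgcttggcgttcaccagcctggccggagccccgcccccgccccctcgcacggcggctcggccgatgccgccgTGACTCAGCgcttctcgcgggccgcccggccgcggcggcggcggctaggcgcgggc
Acss2: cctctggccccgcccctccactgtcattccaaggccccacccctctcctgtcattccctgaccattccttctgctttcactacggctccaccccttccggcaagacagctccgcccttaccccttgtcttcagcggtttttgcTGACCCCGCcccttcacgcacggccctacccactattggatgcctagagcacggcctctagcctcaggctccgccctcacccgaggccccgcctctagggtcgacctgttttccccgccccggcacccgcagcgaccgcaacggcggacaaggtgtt
Pmvk: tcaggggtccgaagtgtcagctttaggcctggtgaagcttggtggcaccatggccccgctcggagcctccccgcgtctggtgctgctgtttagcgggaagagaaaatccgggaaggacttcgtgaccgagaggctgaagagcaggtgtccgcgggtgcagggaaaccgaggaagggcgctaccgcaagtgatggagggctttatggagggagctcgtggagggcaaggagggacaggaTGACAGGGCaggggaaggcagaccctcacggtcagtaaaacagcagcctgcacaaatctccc
Cidec: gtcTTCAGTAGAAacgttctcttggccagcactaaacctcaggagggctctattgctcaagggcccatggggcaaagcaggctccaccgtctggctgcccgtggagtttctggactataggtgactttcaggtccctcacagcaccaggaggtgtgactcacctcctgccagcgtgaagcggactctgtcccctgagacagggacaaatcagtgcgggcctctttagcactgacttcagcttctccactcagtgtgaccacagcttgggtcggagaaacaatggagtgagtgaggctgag

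Over the 38 genes with a window, 6 held the antioxidant core, against 14% of all 27025 genes in the table, and 3 of the 7 risen genes did. Those 3 include Pmvk, whose match lies past the codons described above. The palindrome was in 4 of the 38, against 8.01% of all genes, and in 1 of the 7. The sterol core was in 2 of the 38, Hmgcs1 and Acsl1, against 1.44% of all genes, and in 0 of the 7. The motifs were chosen after the values were seen, and a match describes letters in a window, not a bound site.

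Among the cholesterol synthesis enzymes, 15 of 18 were measured. Pmvk had the largest difference with each cytokine, followed closely by Sc5d. With IL-4, 14 of the 15 had a difference above 0, Pmvk alone passed the test, and the median difference was 0.10 on the log2 scale. With IL-13, 13 of the 15 lay above 0, Pmvk again alone passed, and the median was 0.11. With the mean of both cytokines 14 lay above 0 and 2 passed, Pmvk and Sc5d, with a median of 0.14. Over all genes 46.5%, 48.6% and 47.4% lay above 0 in these comparisons, and 2.15%, 3.50% and 3.51% passed as higher.

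The early steps run from acetyl-CoA to farnesyl diphosphate, and 5 of 7 of their genes were measured. Pmvk encodes phosphomevalonate kinase, which adds the second phosphate group to mevalonate, and 1 of its promoter windows is printed above. It measured 6.35, 6.48, 6.58 and 6.67 on the IL-4 arrays, 6.37, 6.31, 6.54 and 6.38 on the IL-13 arrays, and 5.92, 6.09, 6.05 and 6.06 on the control arrays, in normalised log2 signal. All 8 treated arrays lay above all 4 control arrays. The means were 6.52 ± 0.13 with IL-4, 6.40 ± 0.10 with IL-13 and 6.03 ± 0.08 in control (SD, n = 4 each). Pmvk rose 1.41-fold with IL-4 (adjusted p = 0.0012) and 1.29-fold with IL-13 (adjusted p = 0.0098). Within chip 1 the log2 differences were 0.42 and 0.34 with adjusted p of 0.074 and 0.158, and within chip 2 they were 0.56 and 0.40 with adjusted p of 0.046 and 0.132.

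The neighbouring early enzymes did not pass. Fdps, the farnesyl diphosphate synthase, differed by 0.17 with IL-4 and 0.18 with IL-13 on the log2 scale, and its treated and control arrays did not overlap with either cytokine, but the adjusted p values were 0.229 and 0.157. Idi1, the isopentenyl diphosphate isomerase, differed by 0.16 and 0.11, and Mvd, the mevalonate diphosphate decarboxylase, by 0.10 and 0.13. Mvk, the mevalonate kinase just ahead of Pmvk, was the exception in sign, at -0.03 and -0.10.

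The later steps, from squalene through the sterol ring, had 10 of 11 genes measured, and 0 passed with IL-4 or IL-13 alone, while 10 and 9 lay above 0. Sc5d, the desaturase that makes the precursor of the last reduction, had the largest difference. It measured 5.35, 5.53, 4.88 and 5.38 on the IL-4 arrays, 5.22, 5.17, 5.13 and 5.21 on the IL-13 arrays, and 4.91, 4.91, 5.05 and 4.56 on the control arrays. The IL-13 arrays all lay above control, whereas IL-4 replicate 3 fell within the control range. The differences were 0.43 with IL-4 (adjusted p = 0.062) and 0.32 with IL-13 (adjusted p = 0.150), and 0.38 with the mean of both (adjusted p = 0.040). That last call held in 2 of 12 omissions of a single array, without control replicate 3 or IL-4 replicate 3. Over the 12 omissions the difference ran between 0.28 and 0.45 and adjusted p between 0.0028 and 0.142. Without IL-4 replicate 3 the IL-4 difference alone was 0.57 (adjusted p = 0.0033).

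Sqle, the squalene epoxidase, differed by 0.16 with IL-4 (adjusted p = 0.490) and 0.29 with IL-13 (adjusted p = 0.090), and its IL-13 arrays all lay above control. With the chip as a block, its IL-13 difference passed the threshold. Cyp51, the lanosterol demethylase, differed by 0.22 and 0.16, and its IL-4 arrays all lay above control. Lss, which closes squalene epoxide into lanosterol, differed by 0.08 and 0.22, and Ebp, a sterol isomerase, by 0.27 and 0.11. A second, dimmer Lss probe differed by -0.05 and -0.11. Without control replicate 4 the IL-4 difference of Ebp was 0.33 with an adjusted p of 0.027. Msmo1, Hsd17b7, Nsdhl, Dhcr7 and Tm7sf2, which demethylate or reduce the ring, lay between -0.04 and 0.10 with either cytokine. Dimmer Nsdhl probes lay between -0.03 and 0.27 with IL-4 and between -0.07 and -0.0033 with IL-13.

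Averaged over the 15 measured enzymes, the IL-4 arrays lay 0.11, 0.18, 0.14 and 0.19 above the control mean and the IL-13 arrays 0.14, 0.06, 0.20 and 0.13, while the control arrays lay between -0.01 and 0.02. All 8 treated arrays were above all 4 control arrays. The same average over all 10453 genes stayed between -0.01 and 0.02 on every array. Quantile normalisation gives all arrays the same distribution and so holds that average near 0, and it is no separate check on the enzymes. In the submitters' processed values, which carry no background correction, 9 of 15 enzymes lay above 0 for IL-4 and 13 for IL-13. The median difference over all genes there was -0.05 for IL-4, with 15 enzymes above it, and -0.02 for IL-13, with 13 above it. In those values 2 of 4 arrays of each cytokine lay above every control array.

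**Figure D3:**
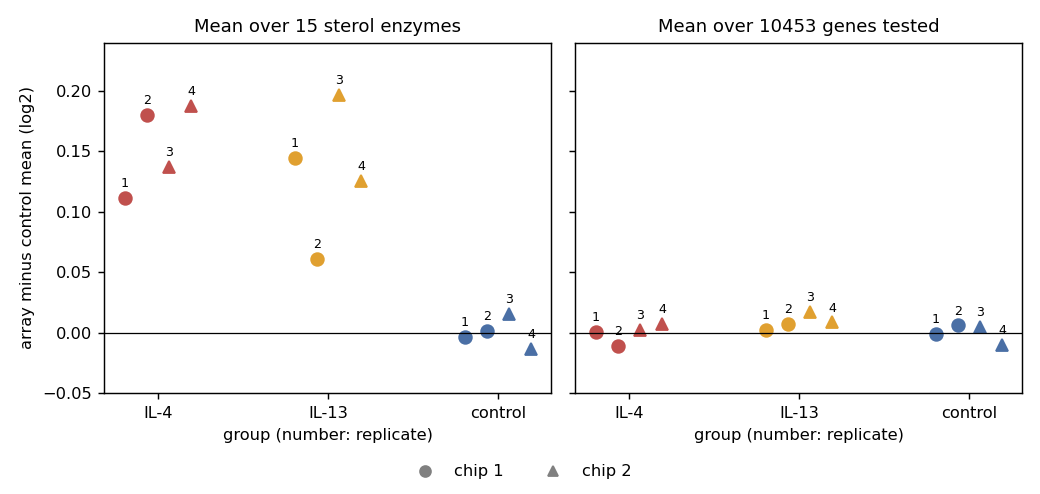
Mean over the 15 measured cholesterol synthesis enzymes (left) and over all 10453 genes (right) on each array, as normalised log2 signal minus the mean of the 4 control arrays, with the replicate number over each point and the chip as its shape. On the left the treated arrays lie between 0.06 and 0.20 and the control arrays near 0, while on the right every array lies near 0. Quantile normalisation holds the average on the right near 0.

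The regulators of sterol sensing showed a modest rise of Insig1. Insig1 encodes the endoplasmic reticulum protein that retains SCAP when sterols are plentiful, and it is itself a target of the sterol regulatory element-binding proteins. It measured 6.50, 6.34, 6.49 and 6.28 on the IL-4 arrays, 6.32, 6.44, 6.46 and 6.31 on the IL-13 arrays, and 6.06, 6.22, 6.18 and 6.06 on the control arrays. No treated array overlapped a control array. The differences of 0.27 with IL-4 and 0.25 with IL-13 had adjusted p of 0.062 and 0.068, and the mean of both passed at 0.26 (adjusted p = 0.024). That call was lost without control replicate 1 (0.24, adjusted p = 0.088) and without control replicate 4 (0.24, adjusted p = 0.061). Its 3 dimmer probes differed by 0.10, 0.15 and 0.18 with the mean of both and did not pass.

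Srebf1, which encodes the factor steering mainly fatty acid genes, measured 6.20, 5.67, 6.28 and 6.16 on the IL-4 arrays, 6.05, 6.36, 6.51 and 6.36 on the IL-13 arrays, and 5.89, 5.82, 6.18 and 5.80 on the control arrays. Treated and control arrays overlapped with each cytokine. It differed by 0.15 with IL-4 (adjusted p = 0.678) and 0.40 with IL-13 (adjusted p = 0.088). The IL-13 difference passed without IL-4 replicate 2 (0.40, adjusted p = 0.031), without control replicate 3 (0.48, adjusted p = 0.048) and without IL-13 replicate 1 (0.49, adjusted p = 0.040). Srebf2, whose product steers mainly sterol genes, differed by 0.07 and 0.17, and Scap, the escort, by -0.11 and -0.10. Dimmer probes differed by 0.11 and -0.04 for Srebf2 and by -0.16 and 0.09 for Scap.

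Of the 4 measured genes of acetyl-CoA and NADPH supply and fatty acid synthesis, Me1 rose with both cytokines and Acss2 with IL-13. Me1 encodes cytosolic malic enzyme, which makes NADPH for fatty acid and sterol synthesis. It measured 9.38, 9.60, 9.36 and 9.34 on the IL-4 arrays, 9.28, 9.42, 9.38 and 9.39 on the IL-13 arrays, and 8.44, 8.53, 8.52 and 8.43 on the control arrays. The lowest treated array lay well above the highest control array. The means were 9.42 ± 0.12 with IL-4, 9.37 ± 0.06 with IL-13 and 8.48 ± 0.05 in control (SD, n = 4 each). Me1 rose 1.92-fold with IL-4 (adjusted p = 2.3e-07) and 1.85-fold with IL-13 (adjusted p = 4.6e-07). The log2 differences were 1.01 and 0.86 within chip 1 and 0.87 and 0.90 within chip 2, and all 4 passed within their chip.

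Acss2, which makes cytosolic acetyl-CoA from acetate, measured 6.65, 6.74, 6.57 and 6.63 on the IL-4 arrays, 7.01, 6.78, 6.78 and 6.78 on the IL-13 arrays, and 6.26, 6.37, 6.60 and 6.35 on the control arrays. The IL-13 arrays all lay above control, and IL-4 replicate 3 fell just below control replicate 3. It rose 1.36-fold with IL-13 (adjusted p = 0.0033). With IL-4 the difference was 0.25 (adjusted p = 0.129), and without control replicate 3 it was 0.32 (adjusted p = 0.049). Within chip 1 the IL-13 difference was 0.59 (adjusted p = 0.022) and within chip 2 it was 0.30 (adjusted p = 0.310).

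Acly, which makes acetyl-CoA from citrate, differed by -0.10 with IL-4 and 0.08 with IL-13, and neither passed. Fasn, which assembles palmitate, lay too near background for a change to be read: it was detected on 1 IL-4 array, 2 IL-13 arrays and 1 control array and differed by -0.07 and 0.06. The probes of the carboxylase genes Acaca and Acacb did not reach the detection filter.

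**Figure D4:**
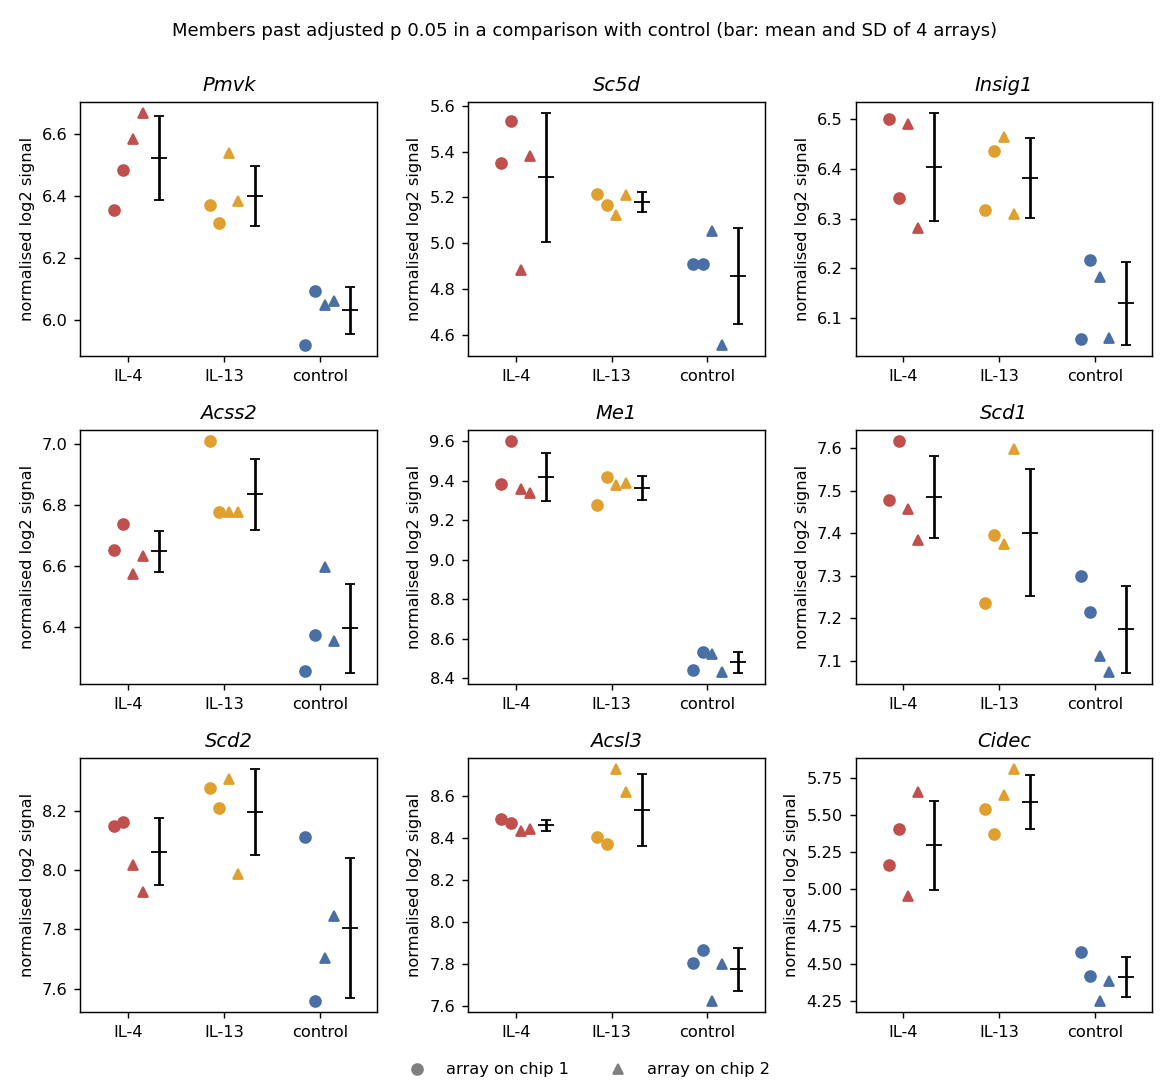
Normalised log2 signal on each array for the 9 genes past an adjusted p of 0.05 in a comparison with control, with circles for chip 1, triangles for chip 2, and the mean and SD of the 4 arrays beside each group. The treated and control points stand apart for Pmvk, Insig1, Me1, Acsl3 and Cidec with both cytokines, while Sc5d and Acss2 overlap control with IL-4, Scd1 with IL-13 and Scd2 with both.

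Elongation, desaturation and activation had 8 of 9 genes measured. Of these 1 rose with IL-4 and 2 with IL-13, beside 2.15% and 3.50% of all genes. Acsl3 encodes an acyl-CoA synthetase of the endoplasmic reticulum and of nascent lipid droplets, which activates fatty acids for incorporation into lipids. It measured 8.49, 8.47, 8.44 and 8.44 on the IL-4 arrays, 8.41, 8.37, 8.73 and 8.62 on the IL-13 arrays, and 7.80, 7.87, 7.63 and 7.80 on the control arrays. All treated arrays lay above all control arrays, and the IL-4 arrays were nearly identical. Acsl3 rose 1.61-fold with IL-4 (adjusted p = 6.5e-05) and 1.69-fold with IL-13 (adjusted p = 1.4e-05). The log2 differences were 0.65 and 0.56 within chip 1 and 0.72 and 0.96 within chip 2, and all 4 passed. A second, dimmer probe differed by 0.32 and 0.35, and with IL-13 it passed in a fit of all probes (adjusted p = 0.083 and 0.033).

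The stearoyl-CoA desaturases Scd1 and Scd2, which make monounsaturated fatty acids, moved less. Scd2 measured 8.15, 8.16, 8.02 and 7.93 on the IL-4 arrays, 8.28, 8.21, 8.31 and 7.99 on the IL-13 arrays, and 8.11, 7.56, 7.70 and 7.84 on the control arrays. Control replicate 1 lay within the treated range. Scd2 rose 1.31-fold with IL-13 (adjusted p = 0.040), a call lost on omitting any of control replicates 2, 3 and 4, IL-13 replicates 1, 2 and 3 or IL-4 replicate 1, with differences between 0.31 and 0.49 and adjusted p between 0.0068 and 0.128 over the 12 omissions. With the mean of both it differed by 0.32 (adjusted p = 0.047), a call that held on omitting control replicate 1, IL-13 replicate 4 or IL-4 replicate 4 but no other array (adjusted p between 0.0076 and 0.199). Within chips 1 and 2 its IL-13 differences of 0.41 and 0.37 did not pass.

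Scd1 measured 7.48, 7.62, 7.46 and 7.39 on the IL-4 arrays, 7.24, 7.40, 7.38 and 7.60 on the IL-13 arrays, and 7.30, 7.21, 7.11 and 7.07 on the control arrays. The IL-4 arrays all lay above control, and IL-13 replicate 1 fell within the control range. It differed by 0.31 with IL-4 (adjusted p = 0.058) and 0.23 with IL-13 (adjusted p = 0.156), and the mean of both passed at 0.27 (adjusted p = 0.040). That call held on omitting control replicate 1, IL-13 replicate 1 or IL-4 replicate 4 but no other array, with differences between 0.23 and 0.31 and adjusted p between 0.024 and 0.124. Without IL-13 replicate 4 the IL-4 difference alone had an adjusted p of 0.040. Scd1 and Scd2 are close paralogs, and binding of one transcript to the other's probe was not tested.

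Elovl6, which lengthens palmitate to stearate, differed by 0.19 with IL-4 and 0.20 with IL-13, with no overlap of treated and control arrays and adjusted p of 0.229 and 0.147. A second, dimmer Elovl6 probe differed by 0.02 and -0.04. The polyunsaturated fatty acid enzymes Fads1, Fads2 and Elovl5 and the very long chain elongase Elovl1 lay between -0.08 and 0.08 with either cytokine. A dimmer Fads2 probe differed by -0.18 and 0.02, and dimmer Elovl1 probes lay between -0.20 and 0.20.

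No gene of triglyceride assembly passed the test: all 5 genes were measured and 0 passed with either cytokine or with the mean of both. Gpam, which starts glycerolipid synthesis on the mitochondrial surface, had the largest single difference of the 5, with IL-13. It measured 4.54, 4.96, 4.81 and 5.02 on the IL-4 arrays, 4.76, 4.57, 4.61 and 4.53 on the IL-13 arrays, and 4.59, 4.76, 4.95 and 4.84 on the control arrays. The groups overlapped, and the differences were 0.05 with IL-4 (95% interval -0.17 to 0.27) and -0.17 with IL-13 (95% interval -0.38 to 0.05). Agpat2 differed by 0.13 and 0.16 and Lpin1 by 0.11 and 0.15, both enzymes that carry lysophosphatidate on to diacylglycerol. Dgat1 and Dgat2, which add the last acyl chain, differed by -0.02 and -0.15 and by -0.10 and -0.13.

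Of the 4 droplet genes, Cidec rose and Plin2, Plin3 and Pnpla2 did not pass the test. Cidec encodes a droplet surface protein that promotes fusion and growth of droplets and is known best from fat cells and steatotic liver. It measured 5.16, 5.40, 4.96 and 5.65 on the IL-4 arrays, 5.54, 5.37, 5.64 and 5.81 on the IL-13 arrays, and 4.58, 4.42, 4.25 and 4.38 on the control arrays. All treated arrays lay above all control arrays, in a dim range of signal. The probe was detected on 4 IL-4, 4 IL-13 and 1 control arrays, so Cidec passed the detection filter through its treated arrays, and with detection demanded on all 12 arrays it was not tested. Cidec rose 1.85-fold with IL-4 (adjusted p = 0.00028) and 2.27-fold with IL-13 (adjusted p = 7.7e-06), folds that the added offset and the control background make smaller than the change in transcript. Within chip 1 the log2 differences were 0.81 and 0.99 and within chip 2 0.95 and 1.35, and all 4 passed.

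Before normalisation the same probe read 119.6, 126.5, 109.4 and 128.5 on the IL-4 arrays, 133.8, 126.8, 130.4 and 134.0 on the IL-13 arrays, and 109.3, 107.3, 93.9 and 98.4 on the control arrays, in raw intensity. Of 8 annotated fat cell markers, Adipoq, Plin1, Cidea, Retn and Fabp4 were detected on 0 of 12 arrays, and the 3 measured ones, Lep, Pparg and Lipe, did not pass in any comparison with control. Their summed normalised signal on the linear scale lay between 378 and 407 on IL-4 arrays, between 413 and 430 on IL-13 arrays, and between 366 and 402 on control arrays. The IL-13 arrays all lay above the control arrays. That sum follows Pparg, whose means were 7.97 on IL-4, 8.11 on IL-13 and 7.89 on control arrays. The means of Lep and Lipe lay between 4.52 and 4.62. The part of the sum's shift in the Cidec values was not tested.

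Plin2, the main droplet coat protein of liver cells, ran the other way. It measured 8.45, 8.52, 8.48 and 8.35 on the IL-4 arrays, 8.36, 8.43, 8.41 and 8.33 on the IL-13 arrays, and 8.48, 8.56, 8.74 and 8.99 on the control arrays. The IL-13 arrays all lay below control, and the IL-4 arrays overlapped it. The differences were -0.24 with IL-4 (adjusted p = 0.224) and -0.31 with IL-13 (adjusted p = 0.068), and they did not pass. Within chip 1 the IL-13 difference was -0.12 and within chip 2 it was -0.49. Without control replicate 1 it was -0.38 (adjusted p = 0.030), and in the submitters' processed values it was -0.30 (adjusted p = 0.0066). Plin3, another droplet coat protein, differed by -0.20 and -0.09, and Pnpla2, the adipose triglyceride lipase, by 0.13 and 0.16, and neither passed.

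When IL-13 was set against IL-4 at the equal dose, none of the 40 passed in limma, beside 0% of all genes, while 3 of the 40 and 852 of the 10453 had an unadjusted p under 0.05. With a variance trend and robust fit, 0 genes were higher and 2 lower over all genes, 0 of them members. The log2 differences of members ran between -0.22, for Gpam, and 0.29, for Cidec, with a median of 0.011, against 0.0069 over all genes. The 3 members, singled out after their values were seen, were Cidec at 0.29 (95% interval 0.03 to 0.56), Acss2 at 0.19 (0.01 to 0.36) and Acly at 0.18 (0.01 to 0.35), with adjusted p of 0.5995, 0.603 and 0.6006. For Me1 the interval was -0.21 to 0.10 and for Acsl3 -0.11 to 0.25.

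Around the members, 76 of 117 further lipid genes were measured. With IL-4, 4 of the 76 rose and 0 fell, beside 2.15% of all genes higher and 1.32% lower. Nceh1, which hydrolyses cholesterol esters, rose 1.30-fold with IL-4 (adjusted p = 0.0061), and Lpcat3, which places polyunsaturated chains in phospholipids, 1.26-fold (adjusted p = 0.0091). The other two were Idh1, a cytosolic NADPH source, at 0.35 on the log2 scale (adjusted p = 0.039), and Acadvl, of fatty acid oxidation, at 0.28 (adjusted p = 0.0498).

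With IL-13, 6 of the 76 rose and 0 fell, beside 3.50% of all genes higher and 2.23% lower. Nceh1 rose 1.44-fold (adjusted p = 0.00019) and Lpcat3 1.39-fold (adjusted p = 0.00025). Slc27a4, a fatty acid transport protein, rose by 0.43 on the log2 scale (adjusted p = 0.0033), and Tkt, the transketolase of the pentose phosphate pathway, by 0.36 (adjusted p = 0.0059). Acadm, of fatty acid oxidation, rose by 0.36 (adjusted p = 0.0096), and Cideb, a liver relative of Cidec, by 0.38 (adjusted p = 0.031). With the mean of both, 9 rose and 0 fell, beside 3.51% of all genes higher and 2.63% lower, namely all of those named and Mlx, a partner of the carbohydrate response factor, at 0.27 (adjusted p = 0.048).

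The risen genes were spread over several lists. Over all genes 2.15% were higher with IL-4 and 3.50% with IL-13. Of 20 measured fatty acid oxidation genes 1 rose with each cytokine, of 15 other triglyceride and droplet genes 0 rose with IL-4 and 1 with IL-13, and of 11 sterol sensing and transport genes 1 rose with each. Of 7 further NADPH and citrate genes 1 rose with each, and of 4 other mevalonate, sterol and isoprenoid genes and of 12 other fatty acid enzymes and regulators 0 rose with either. Of 5 fatty acid uptake and binding genes 0 rose with IL-4 and 1 with IL-13, and of 2 measured genes in the list of sterol efflux and liver X receptor genes Lpcat3 rose with each, while the receptor gene Nr1h3 did not pass and the efflux transporter genes Abca1 and Abcg1 were not measured. The median difference over the 76 was 0.04 with IL-4 and 0.02 with IL-13.

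Markers of other cells moved with treatment in places. The hepatocyte product Apoa1 rose 1.69-fold with IL-4 (adjusted p = 0.037) and 2.34-fold with IL-13 (adjusted p = 0.00054) from a dim probe detected on 2 of 4 control arrays. The other 3 measured hepatocyte markers did not pass: Ttr differed by 0.27 and 0.28, Hnf4a by 0.16 and 0.29 and Serpina1a by -0.26 and -0.34 on the log2 scale. Alb, Fgb, Cyp3a11 and Cps1 were detected on 0 arrays. The summed signal of the 9 hepatocyte markers lay between 885 and 1149 on IL-4 arrays, between 1006 and 1234 on IL-13 arrays, and between 864 and 969 on control arrays. Hnf4a makes up the largest part of that sum, with log2 means of 9.30 on IL-4, 9.43 on IL-13 and 9.14 on control arrays. The smooth muscle actin gene Acta2 fell by 2.07 on the log2 scale with IL-13 (adjusted p = 6.5e-05), and the summed signal of 8 stellate and fibroblast markers lay between 234 and 364 on IL-4 arrays, 199 and 271 on IL-13 arrays, and 375 and 593 on control arrays. That sum follows Acta2, since 5 of the 8 were detected on no array and the other measured ones, Des and Pdgfra, differed by 0.05 and 0.16 and by 0.04 and 0.05 and did not pass. The 9 annotated macrophage markers summed to between 1139 and 1223 on IL-4 arrays, 1134 and 1244 on IL-13 arrays, and 1022 and 1076 on control arrays, with 5 of the 9 detected on no array and 2 measured. That sum follows Cd14, which rose with the mean of both by 0.21 on the log2 scale (adjusted p = 0.044). For Cd14 all 8 treated arrays lay above all 4 control arrays, and the other measured one, Csf1r, did not pass. The duct keratin gene Krt7 fell by 0.36 with IL-4 (adjusted p = 0.0083) and by 0.44 with IL-13 (adjusted p = 0.0011) on the log2 scale. It was the only one of 6 measured duct and progenitor markers to pass, and Krt19 differed by 0.18 and 0.15. The part of these shifts in the lipid gene values was not tested, and in RNA of bulk cultures fewer cells of a type and less RNA per cell cannot be told apart.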

How the data were processed

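Labelled RNA (Illumina TotalPrep amplification, Cy3, per the labels' protocols) was hybridised to beadchips, and the submitters' processing notes name GenomeStudio 2011.1. The authors deposited a non-normalised table of a probe intensity and a detection p-value per array, and processed log2 values, which equal the log2 intensity plus a constant of 2.22 to 2.34 per array. Background correction and quantile normalisation used neqc of limma 3.58.1 under R 4.3.3, with an offset of 16 before log2. Probes with detection p under 0.05 on at least 4 of 12 arrays were kept (19915), and 1 probe stood for a gene, the one with the highest mean. The annotation gave 1 gene symbol for 34885 probes, several for 18 and none for 10378, and 99.8% of those with 1 symbol matched a current RefSeq gene. A model of 3 group means (lmFit, eBayes, two-sided) was fitted to 10453 genes, with Benjamini-Hochberg adjustment over them, and a gene was called at an adjusted p under 0.05. The number of arrays limits the precision. The fit was tested on simulated data.

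The members, gene lists and tests were chosen with earlier results of these data known. Values on every array are given for members past the threshold in any comparison, for the member of largest difference in each of the 7 steps, and for Plin2, added after its values were seen. Further lipid genes are named where they passed. Alternatives were a quantile normalisation without background correction, an offset of 50, scaling to the 75th percentile, other filters and probe rules, a variance trend, array weights, the submitters' values, chip or replicate as a block, each chip alone, and arrays left out.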

Additional observations from a re-analysis of the deposited data

Results flagged for a closer look

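Over the 33 groups of 4 arrays formed by 11 named genes in 3 conditions, 2 held an array far from the others by Dixon's criterion, and chance flags about 1 in 20 groups. For Acss2, IL-13 replicate 1 stood at 7.01 in normalised log2 signal, the nearest of the other IL-13 arrays at 6.78, and the gap took up 0.993 of the group's range. Without that array Acss2 still passed with IL-13. For Me1, IL-4 replicate 2 stood at 9.60, the nearest at 9.38, and the gap took up 0.830 of the range, just past the critical value. All 4 IL-4 arrays of Me1 lay above every control array.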

How the results depend on the processing

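With IL-4 the count of members higher than control stayed within 1.5 times the reported 4 under all 14 alternatives and all single omissions (4 to 5 in the omissions). With IL-13 (reported 6) it was 3 on chip 2 alone and 5 to 7 in the omissions, and with the mean of both (reported 9) it was 5 on chip 1 alone, 4 on chip 2 alone, 4 in the submitters' processed values, 5 without the 3 arrays rich in hemoglobin signal and 6 to 8 in the omissions. Plin2 was the only member to be called lower. With the mean of both this gave a count of 1 against 0 under 75th percentile scaling, detection on all 12 arrays, an offset of 50, quantile normalisation without background correction, the submitters' values and the variance trend, and 0 to 1 in the omissions. With IL-13 the count was 1 under 75th percentile scaling, the offset of 50, the submitters' values and the variance trend, and 0 to 1 in the omissions, and with IL-4 it was 1 in the submitters' values. The cause of these changes was not tested, and each chip alone holds 2 arrays per group. In the submitters' values 120 genes were higher and 294 lower with IL-4, against 225 and 138 as reported, 203 and 406 with IL-13, against 366 and 233, and 206 and 597 with the mean of both, against 367 and 275. On the log2 scale the difference of Gpam turned to 0.032 with the mean of both on chip 1, and with IL-4 to -0.091 without the 3 arrays rich in hemoglobin signal and to between -0.015 and 0.15 in the omissions. That of Lss with IL-4 turned to -0.040 on chip 1. The median difference of the members was 0.068 with IL-4, 0.081 with IL-13 and 0.074 with the mean of both under quantile normalisation without background correction, and 0.0048, 0.045 and 0.033 in the submitters' values, against 0.097, 0.12 and 0.13 as reported. Averaging the probes of a gene gave 0.082 with IL-13. Me1 and Acsl3 passed with each cytokine under all 14 alternatives, and Cidec under the 13 in which it was tested. The other calls held less often. With the mean of both, Pmvk passed in 13 of the 14, Acss2 in 11, Insig1 in 10, Scd2 in 8 and Sc5d and Scd1 in 6 each. With IL-13, Acss2 passed in 13, Pmvk in 12 and Scd2 in 8, and with IL-4 Pmvk passed in 13. Deviations of same-numbered arrays correlated between -0.15 and 0.21, with 5 of 12 pairs over 0.1, and 4 of 12 arrays correlated best with their own number. Same-numbered arrays also share a chip, so these values cannot decide whether the replicate numbers pair the arrays. With the replicate block 4 members were higher with IL-4, 7 with IL-13 and 7 with the mean of both, and 0 were lower. Dim signal limits Fasn, Gpam and Cidec, which lie close to background.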
